A study of Schizosaccharomyces pombe with 24 samples.

Results

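The machinery of RNA polymerases I and III was described here through 35 genes of the fission yeast *Schizosaccharomyces pombe*, chosen by name from the 6987 rows of the deposited tables. They were the subunits of the 2 enzymes, their initiation factors and the repressor gene *maf1*. The Pol I list held 13 genes, the Pol III list 19, and *rpc19* and *rpc40* encode subunits common to both enzymes. Each of the 35 had a row whose product description named the complex of its list. In 34 of them at least 1 group average reached 100 normalized counts, and *sfc7*, a TFIIIC gene, was listed at 0 in every group.

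Poly(A)+ RNA was sequenced from 24 libraries in 8 groups of 3 biological replicates. The reference group was WT (strain AGP72, h-) in log phase in YES, a rich yeast extract medium. The other 7 groups were of AGP83, h- *pho7*Δ::natMX, which lacks the transcription factor Pho7, an activator of phosphate acquisition genes. It was harvested in log phase in YES at 0 h and at 6 later times (4, 8, 12, 24, 36 h and finally 48 h) in ePMGT(-PO4), a defined medium without phosphate. Both strains carried auxotrophic mutations in *leu1*, *ura4*, *his3* and *ade6*. No WT group without phosphate was analysed here, so a starved group differed from WT in strain, medium, phosphate supply and time in culture at once, and these cannot be told apart. Likewise, medium and phosphate changed together within the *pho7*Δ strain.

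RNA polymerase I transcribes the large ribosomal RNA precursor, and RNA polymerase III transcribes tRNAs, 5S rRNA and other short RNAs. Each enzyme is brought to its genes by its own factors: the core factor, the upstream activation factor and Rrn3 for Pol I, and TFIIIA, TFIIIB and TFIIIC for Pol III. Maf1 is a conserved repressor of Pol III, which in budding yeast is held inactive by phosphorylation during growth and acts on the polymerase when nutrients or TOR signalling fail. The mRNAs of all these proteins are made by Pol II, so poly(A)+ libraries report on the machinery and not on its RNA products.

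The deposited value of a gene in a group is the average of normalized read counts over its 3 libraries. No value per library was given, so no error was attached to it, and the authors' standard errors for the comparisons with WT were not used. No test was run, and differences are given as the log2 ratio of 2 averages after adding 1 to each. A gene was called higher or lower when the averages differed by a fold of 2 or more and the larger was at least 100. For scale, over all protein-coding genes the averages at 48 and 36 h differed by a median of 0.07 on the log2 scale, with a 95th percentile of 0.23, including whatever change took place between those times. The *pho7* row stood at 3147 in WT, at 833, or 26.5% of WT, in *pho7*Δ at 0 h and at 10.6% of WT at 48 h, and was below WT in all 7 *pho7*Δ groups. Which part of the gene the counts left in the deletion strain come from was not tested. The sum of all averages differed from WT by at most 0.17 on the log2 scale. Such values are relative to the other RNAs of a library, so a change in total mRNA per cell would not show in them. Fewer cells that hold a transcript and less of it in each cell cannot be told apart either.

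Against WT, 1 of 34 measured members was called higher and 0 lower in *pho7*Δ at 0 h, where 7.86% and 7.36% of protein-coding genes were. The member was *brf1*. At 4 h, 3 members were higher and 4 lower (14.7% and 10.6% of coding genes). At 8 h, 4 were higher and 7 lower (16.5% and 15%), and the same counts held at 12 h (17.2% and 14.4%). At 24 h, 6 were higher and 8 lower (17.9% and 16.8%), at 36 h 6 and 9 (17.8% and 17.2%), and at 48 h 6 and 9 (17.6% and 17.4%). Called at 2 or more consecutive starved times, 6 members were higher and 11 lower, against 20.4% and 19.8% of coding genes. As shares of the 34 members, the higher calls were below the background from 0 to 12 h and near it later. The lower calls were below it at 0 h, near it at 4 h and above it from 8 h on. In a list of 34 genes these distances come to a few genes and are not read as a result about the members. With a fold limit of 3 in place of 2, only *brf1* and *maf1* were higher over the course and only *spp27* lower. Pol I genes made up 8 of the 11 lower calls over the course and 1 of the 6 higher ones. For Pol III the counts were 3 and 4, the remaining higher call being *maf1*.

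**Figure D1:**
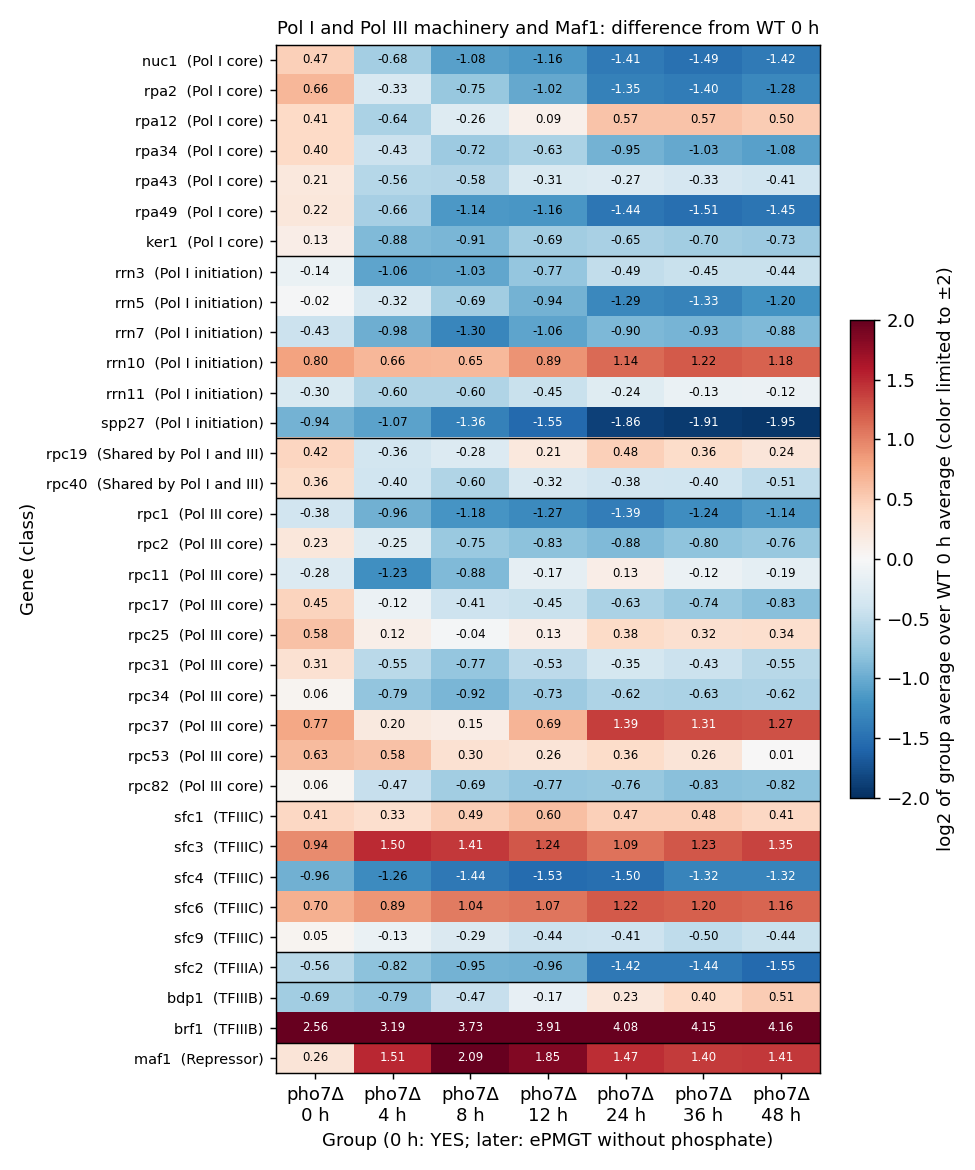
Heat map of the 34 measured genes (rows, by class) in the 7 *pho7*Δ groups (columns), with the log2 of the group average over the WT average in each cell (red higher, blue lower, color limited to 2 in either direction). Most rows are red or pale at 0 h and blue from 4 h on, with *brf1*, *maf1*, *sfc3*, *sfc6*, *rpc37* and *rrn10* as the red rows at 48 h whose values pass 1.

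Transcripts of *maf1*, the Pol III repressor, were higher than in WT at every starved time and highest at 8 h. The averages were 425 in WT, 511 in *pho7*Δ at 0 h and 1214, 1819, 1534, 1181, 1124 and 1129.8 from 4 to 48 h. The 2 groups at 0 h were the lowest, and all 6 starved groups lay above both. Compared with WT, the difference was 0.26 on the log2 scale at 0 h and 1.51, 2.09 and 1.85 at 4, 8 and 12 h, and it then ranged from 1.40 to 1.47. The highest point was 4.27-fold the WT level. Compared with *pho7*Δ at 0 h, the same strain before transfer, *maf1* was 1.25 higher at 4 h, 1.83 at 8 h and 1.14 at 48 h on the log2 scale. Between 8 and 48 h it dropped by 0.69, and it stayed 2.65-fold above WT. An annotated noncoding RNA without a row in these tables lies opposite 94.5% of *maf1*, and its level was not analysed here.

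Among 4943 protein-coding genes, the 5 whose averages tracked *maf1* most closely over the 8 groups were SPBC1709.03, *nas6*, *tcb3*, *atm1* and *rnf10*, with Pearson r from 0.992 to 0.994 on 8 points. These points share the WT and 0 h groups and a peak at 8 h. The amplitudes were smaller: from lowest to highest average, *atm1*, a mitochondrial exporter for iron-sulfur cluster assembly, spanned 1.33 on the log2 scale and SPBC1709.03 spanned 0.65.

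Regulators that act on Maf1 or on nutrient signalling in yeasts were followed as a list of 14 measured genes: TOR kinases and a TORC1 subunit, protein kinase A, other AGC kinases, casein kinase 2 and the PP2A and PP4 phosphatases. One of the 14, *psk1*, an S6 kinase downstream of TORC1, was called higher over the course and none was called lower (20.4% and 19.8% of coding genes). Its averages were 1008 in WT, 2374 in *pho7*Δ at 0 h and 4592, 5343, 4287, 3316, 3386 and 2915 from 4 to 48 h. Like *maf1*, *psk1* was highest at 8 h, 2.40 above WT on the log2 scale, but it was already 1.23 higher in *pho7*Δ before transfer. For *tor1* and *tor2*, which encode the TOR kinases, differences from WT ran from -0.11 to 0.50 and from -0.36 to 0.09. *mip1*, encoding a TORC1 subunit, reached 0.87 at 8 h and *pka1*, the catalytic subunit of protein kinase A, 0.67, neither of which passed the fold limit.

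TFIIIB, which recruits Pol III, consists of Brf1, Bdp1 and the TATA-binding protein. The averages of *brf1* were 102 in WT, 608 in *pho7*Δ at 0 h and 939, 1372, 1548, 1741, 1827 and 1851 from 4 to 48 h. Every *pho7*Δ group lay above WT, and each group was above the one before it. The difference from WT was 2.56 on the log2 scale at 0 h and 4.16 at 48 h, the highest among the members in all 7 groups. Within the *pho7*Δ strain, *brf1* was 0.63 higher at 4 h and 1.60 at 48 h than at 0 h.

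The WT level of *brf1* was the lowest of the 34 members, and in the RefSeq annotation of assembly ASM294v3 the gene lies wholly within *vrp1* on the opposite strand. The *vrp1* averages were 8586 in WT, 1217 in *pho7*Δ at 0 h and 748, 489.6, 482, 513, 403 and 341 from 4 to 48 h. They moved the other way from *brf1*, with a difference from WT of -2.82 at 0 h and -4.65 at 48 h. The same arrangement was found at *sfc3*, which encodes the TFIIIC subunit that binds the B box of tRNA genes, and where sfc3-antisense-1 covers 88.2% of the gene. The *sfc3* averages were 415 in WT, 798 in *pho7*Δ at 0 h and 1175, 1106, 983, 884, 978 and 1061 from 4 to 48 h. Those of the antisense RNA were 2486 in WT, 191 in *pho7*Δ at 0 h and 156, 92.1, 91.2, 94.6, 79.5 and 79.7 from 4 to 48 h. *sfc3* was 0.94 above WT on the log2 scale at 0 h and 2.83-fold above it at 4 h, while the antisense RNA was already at -3.69 in *pho7*Δ at 0 h on the log2 scale. In each pair the opposite gene lost most of its level between WT and *pho7*Δ in YES, before starvation.

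Whether reads of these pairs could be assigned to the wrong strand bears on *brf1* and *sfc3*. The libraries were made with a stranded kit, but whether HTSeq was run with a strand setting is not stated in the labels or the methods. Of 199 coding genes that lie wholly inside another listed coding gene on the opposite strand, 180 had an average of 100 or more in some group and 2 were at 0 in every group. The 2 coding genes that lie wholly inside another on the same strand were both at 0, and *sfc7*, wholly inside *ubc14*, is one of them. The part of the opposite transcripts in the levels of *brf1* and *sfc3* was not tested. Without *brf1* and *sfc3*, 2 Pol III genes, *sfc6* and *rpc37*, were higher over the course.

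**Figure D2:**
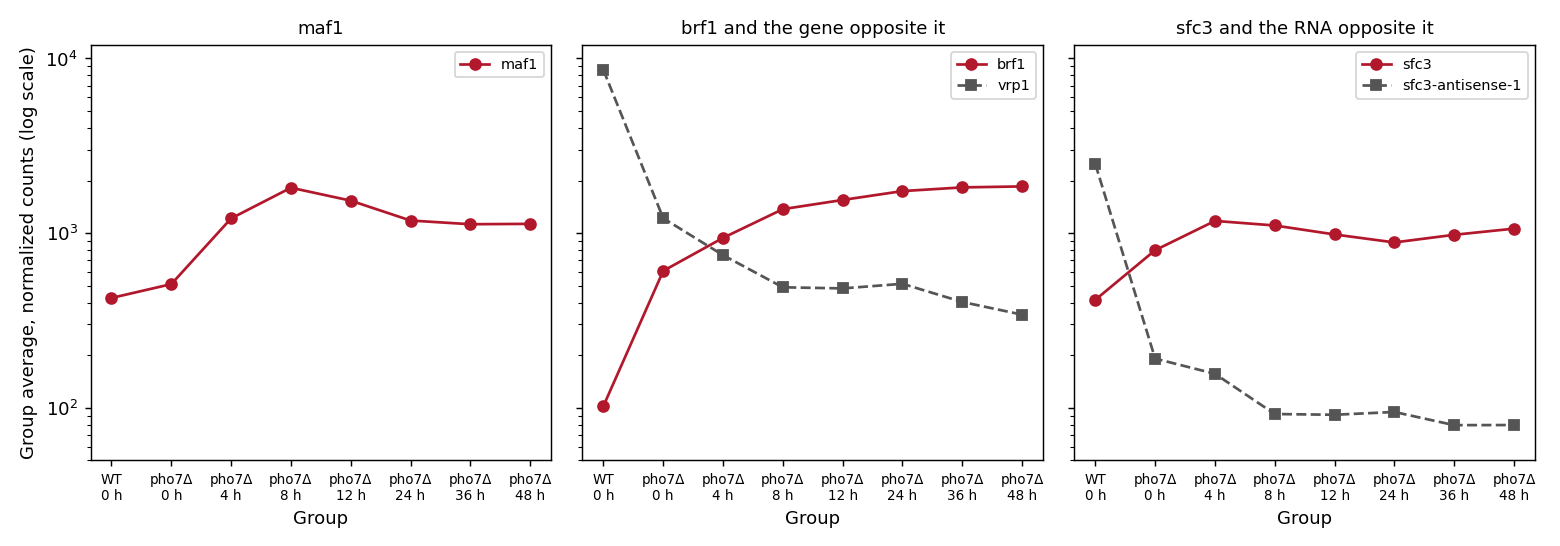
Group averages in normalized counts (log axis) over the 8 groups for *maf1* (left), for *brf1* and the opposite gene *vrp1* (middle) and for *sfc3* and its antisense RNA (right). *maf1* peaks at 1819 at 8 h, whereas the lines of each opposite pair cross, between 0 and 4 h for *brf1* and between WT and 0 h for *sfc3*.

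The second TFIIIB gene, *bdp1*, followed another course. Its averages were 1155 in WT, 713 in *pho7*Δ at 0 h and 669, 835, 1028, 1352, 1524 and 1641 from 4 to 48 h. It was -0.69 and -0.79 relative to WT at 0 and 4 h, passed the WT level between 12 and 24 h and stood 0.51 above it at 48 h. From its lowest point at 4 h to 48 h it was higher in each group than in the one before, and against *pho7*Δ at 0 h the difference at 48 h was 1.20, past the fold limit. *tbp1*, for the TATA-binding protein that all 3 polymerases use, stayed between -0.42 and 0.11 of WT on the log2 scale.

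The 7 genes for subunits of Pol I alone were slightly higher in *pho7*Δ than in WT before transfer, by 0.13 to 0.66 on the log2 scale, although *ker1* was at -0.01 once totals were made equal. All 7 were below WT at 4 h under both scalings tried as well. The averages of *nuc1*, the largest catalytic subunit, were 5919.6 in WT, 8217 in *pho7*Δ at 0 h and 3704, 2799, 2656, 2229, 2100.1 and 2217 from 4 to 48 h. Those of *rpa2*, the second largest subunit, were 6129.7 in WT, 9687 in *pho7*Δ at 0 h and 4888, 3633, 3027, 2408, 2328 and 2519 from 4 to 48 h. Both were highest in *pho7*Δ in YES and lowest at 36 h, when *nuc1* was -1.49 and *rpa2* -1.40 relative to WT, or 2.82-fold and 2.63-fold lower. Against their own 0 h level the 36 h values were -1.97 and -2.06.

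Rpa49 and Rpa34 form a heterodimer that resembles the Pol II factor TFIIF, and their genes followed the catalytic pair. The *rpa49* averages were 3118 in WT, 3635 in *pho7*Δ at 0 h and 1975, 1413, 1391, 1146, 1091 and 1138 from 4 to 48 h. For *rpa34* they were 1339 in WT, 1767 in *pho7*Δ at 0 h and 991, 811, 865, 693, 655 and 632 from 4 to 48 h. At 48 h they were -1.45 and -1.08 relative to WT, and *rpa34* passed the fold limit only at 36 and 48 h. These 4 genes were the Pol I core genes called lower over the course, where 19.8% of coding genes were.

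The stalk and cleavage subunits diverged from them after 4 to 8 h. For *rpa43*, a stalk subunit, the averages were 1586 in WT, 1829 in *pho7*Δ at 0 h and 1073, 1059, 1279.6, 1312, 1261 and 1197 from 4 to 48 h. Its stalk partner *ker1* had averages of 1359 in WT, 1486 in *pho7*Δ at 0 h and 739.8, 723, 839, 866, 837 and 818 from 4 to 48 h. Neither passed the fold limit against WT, and both had their lowest averages at 8 h. *ker1* was then -0.91 and *rpa43* -0.58, and at 48 h they stood at -0.73 and -0.41. For *rpa12*, which encodes the subunit for transcript cleavage, the averages were 1250.3 in WT, 1657 in *pho7*Δ at 0 h and 802, 1042, 1334, 1856, 1861 and 1774 from 4 to 48 h. It was -0.64 relative to WT at 4 h and 0.57 above it at 36 h, so between 4 and 36 h it more than regained its level while *nuc1* and *rpa2* lost more of theirs.

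**Figure D3:**
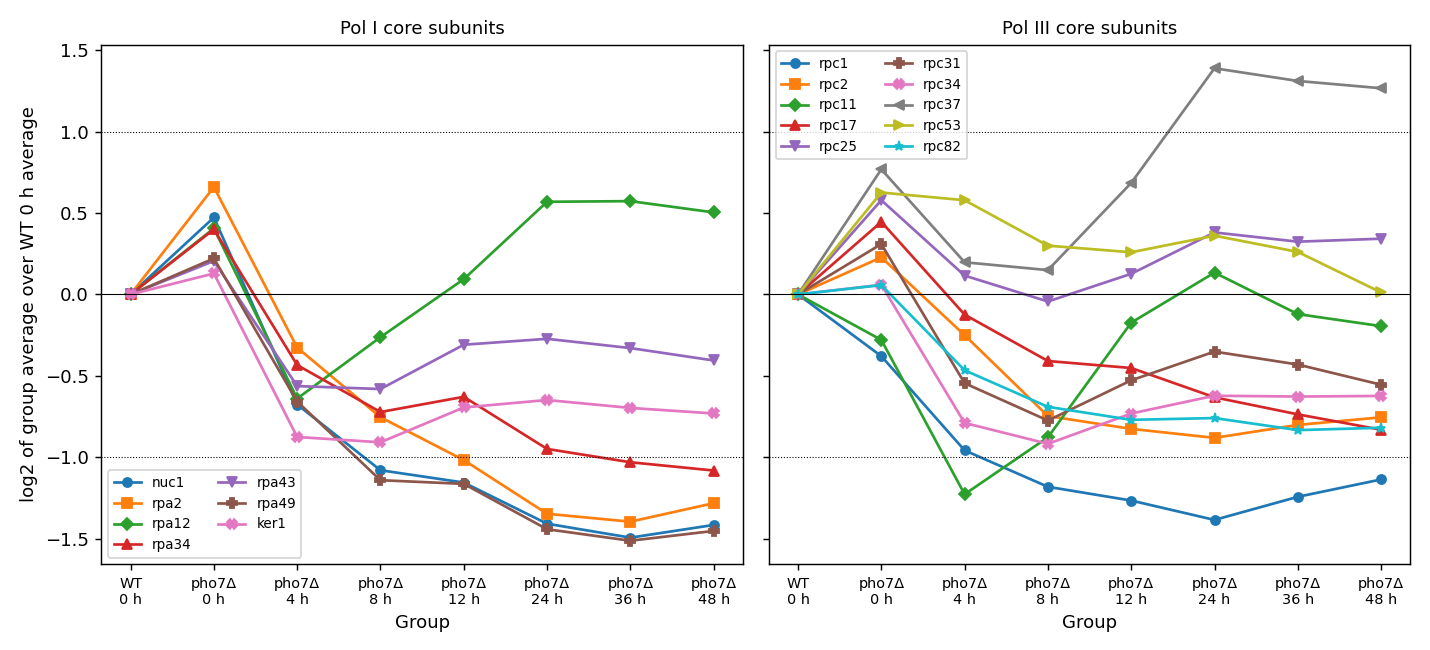
Log2 of the group average over the WT average in the 8 groups for the 7 Pol I core genes (left) and 10 Pol III core genes (right), 1 line per gene, with dotted lines at the fold limit of 2. The Pol I lines lie between -0.88 and -0.33 at 4 h and fan out to between -1.51 and 0.57 at 36 h, and in the Pol III panel *rpc37* is at the top and *rpc1* at the bottom from 12 h on.

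Per kilobase of exon, the levels of the 7 Pol I core genes lay within 2.38-fold of each other in WT, from *nuc1* to *rpa43*, and within 2.06-fold in *pho7*Δ at 0 h. The range was 3.36-fold at 8 h, 6.65-fold at 24 h and 7.08-fold at 36 h, then from *nuc1* to *rpa12*. The SD over the 7 genes of the log2 level per kilobase was 0.40 in WT and 1.02 at 36 h. The Pol III core genes lay within 4.28-fold in WT, 2.28-fold at 4 h and 5.82-fold at 24 h. Exon length moved with these differences: at 48 h the median log2 difference from WT was 0.13 over 2040 coding genes with under 1500 nt of exon, -0.17 over 2109 genes of 1500 to 3000 nt and -0.35 over 767 longer ones. Over the members in these classes it was -0.19 (15 genes), -0.44 (13 genes) and -1.21 (6 genes), in each class below the coding median. The part of length in the fanning out was not tested.

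**Figure D4:**
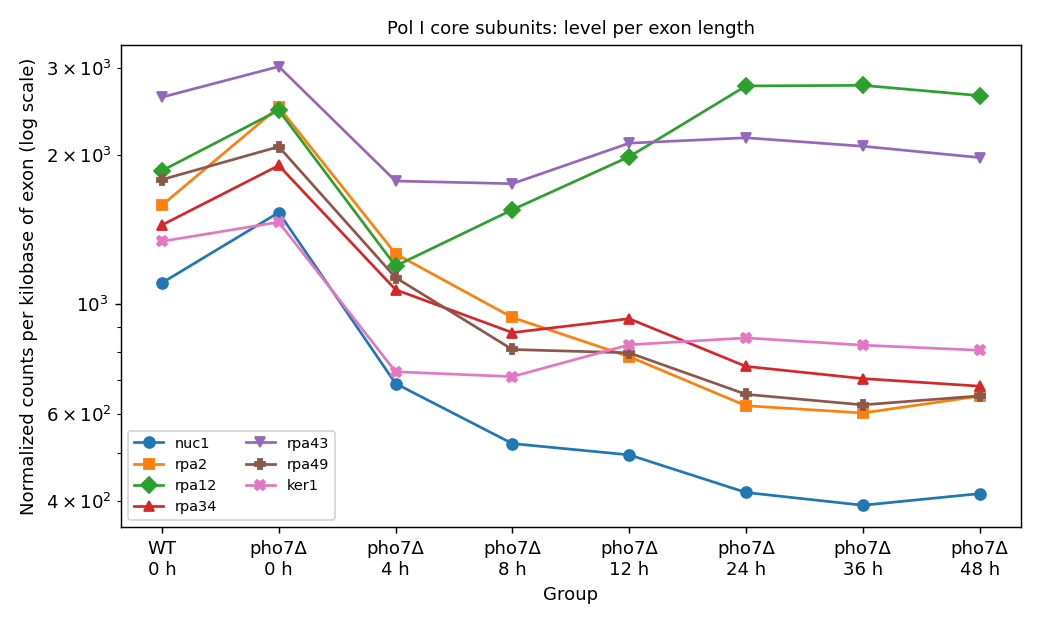
Normalized counts per kilobase of exon (log axis) of the 7 Pol I core genes in the 8 groups, 1 line per gene. The highest and lowest genes are 2.38-fold apart in WT and 7.08-fold apart at 36 h, with *rpa12* at the top and *nuc1* at the bottom.

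The factors that bring Pol I to the ribosomal DNA promoter showed 3 courses. *spp27*, a subunit of the upstream activation factor, had averages of 8367 in WT, 4352 in *pho7*Δ at 0 h and 3979, 3270.4, 2852, 2297, 2225 and 2162 from 4 to 48 h. It was -0.94 relative to WT at 0 h, just short of the fold limit, and its average was lower in each later group down to -1.95, 3.87-fold below WT. *rrn5*, another subunit of that factor, had averages of 1579 in WT, 1558 in *pho7*Δ at 0 h and 1265, 978, 824, 645, 627 and 687 from 4 to 48 h. Unlike *spp27* it stood at -0.02 relative to WT at 0 h, and it reached -1.33 at 36 h. The averages of *rrn10*, from the same factor, were 404 in WT, 703 in *pho7*Δ at 0 h and 638, 633, 751, 891, 943 and 919 from 4 to 48 h. It was higher than WT in all 7 *pho7*Δ groups and passed the fold limit from 24 h on, at 1.14 to 1.22. Subunits of 1 complex thus differed in sign.

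*rrn3* encodes the factor that makes Pol I competent to initiate. Its averages were 2935 in WT, 2672 in *pho7*Δ at 0 h and 1406, 1432, 1720.1, 2083, 2144 and 2163 from 4 to 48 h. It was lowest at 4 h, -1.06 relative to WT, and was back at -0.44 by 48 h. For *rrn7*, a core factor subunit, averages were 1839 in WT, 1365 in *pho7*Δ at 0 h and 934, 747, 882, 986, 967 and 996 from 4 to 48 h. It was lowest at 8 h, at -1.30, and later between -1.06 and -0.88. The second core factor gene, *rrn11*, showed the same shape with a smaller amplitude, -0.60 at 8 h and -0.12 at 48 h, and was not called.

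The subunits common to Pol I and Pol III, which form the assembly platform of both enzymes, were not called in any group. *rpc19* had averages of 974 in WT, 1307 in *pho7*Δ at 0 h and 759, 802, 1128, 1355, 1250.4 and 1152 from 4 to 48 h. For *rpc40* they were 2716 in WT, 3486 in *pho7*Δ at 0 h and 2062, 1788, 2171, 2093, 2059.6 and 1901 from 4 to 48 h. Both were above WT at 0 h and below it at 4 and 8 h, after which *rpc19* stood above WT again and *rpc40* did not. Of the 5 genes for subunits that all 3 polymerases contain, *rpb8* and *rpc10* were called lower over the course (19.8% of coding genes). *rpb8* ran from -1.49 to -1.28 between 4 and 12 h and was -1.53 at 48 h, whereas *rpc10* was -1.39 at 4 h and -0.65 at 48 h. None of the 7 genes for subunits of Pol II alone was called in any group, and the medians of that list ran from -0.17 to 0.06. Over the groups, 7.86% to 17.9% of coding genes were called higher and 7.36% to 17.4% lower, so few calls would be made in lists this short. *rpb1*, the largest Pol II subunit, stayed between -0.09 and 0.11 of WT, while *nuc1* and *rpc1*, its counterparts in Pol I and Pol III, were -1.41 and -1.39 at 24 h.

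Of the 10 genes for subunits of Pol III alone, 1 was called lower and 1 higher over the course (19.8% and 20.4% of coding genes). The averages of *rpc1*, the largest catalytic subunit, were 4043 in WT, 3108 in *pho7*Δ at 0 h and 2080.2, 1781, 1679.8, 1547, 1707 and 1838 from 4 to 48 h. It was -0.38 relative to WT before transfer, lowest at 24 h at -1.39 and at -1.14 at 48 h. *rpc2*, the second largest subunit, had averages of 2329.8 in WT, 2729 in *pho7*Δ at 0 h and 1958, 1387, 1314, 1264, 1336 and 1380.0 from 4 to 48 h. It did not pass the fold limit against WT, with its lowest value of -0.88 at 24 h, but against *pho7*Δ at 0 h it was -1.11 at that time.

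*rpc37* and *rpc53* encode a heterodimer that takes part in initiation and termination. Their courses differed from the first step, with changes from 0 to 4 h of -0.57 for *rpc37* and -0.05 for *rpc53* on the log2 scale. After 8 h their differences from WT lay furthest apart. The averages of *rpc37* were 722 in WT, 1231 in *pho7*Δ at 0 h and 828, 801, 1162, 1894, 1794 and 1739 from 4 to 48 h. Those of *rpc53* were 1028 in WT, 1588 in *pho7*Δ at 0 h and 1537, 1266, 1231, 1321, 1233 and 1037 from 4 to 48 h. *rpc37* was 0.77 above WT at 0 h, 0.15 at 8 h and 1.39 at 24 h, the only Pol III core gene called higher. At 48 h it stood at 1.27 and *rpc53* at 0.01. Both were above or at WT in every group.

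*rpc11*, for the subunit of RNA cleavage and termination, had averages of 851 in WT, 701 in *pho7*Δ at 0 h and 363, 462, 754, 934, 782 and 743 from 4 to 48 h. It had the lowest value of any Pol III core gene at 4 h, -1.23, and was 0.13 above WT at 24 h. Like *rpa12*, its counterpart in Pol I, it had its lowest level at 4 h and its highest at 24 or 36 h among the starved times. This was not particular to these genes. The Pol II gene *rpb9* had its lowest starved average, 692, at 4 h and its highest, 936, at 24 h, and *rpb4*, *rpc10* and *rpc19* had theirs at the same times. The initiation trimer Rpc82, Rpc34 and Rpc31 was lower than WT in all 3 members at every starved time without passing the limit, with 8 h differences of -0.69 for *rpc82*, -0.92 for *rpc34* and -0.77 for *rpc31*. Against *pho7*Δ at 0 h, *rpc31* was -1.08 at 8 h, past the limit at that time. The stalk genes went apart: *rpc25* was -0.04 at 8 h and 0.34 at 48 h, and *rpc17* -0.41 and -0.83. Against *pho7*Δ at 0 h, *rpc17* was -1.28 at 48 h, past the fold limit.

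TFIIIC binds the internal promoters of tRNA genes, and its 5 measured genes differed in sign. The averages of *sfc4* were 6227 in WT, 3199.7 in *pho7*Δ at 0 h and 2599, 2300.2, 2149, 2195, 2497 and 2489 from 4 to 48 h. It was -0.96 relative to WT at 0 h and -1.53 at its lowest, at 12 h, and was called lower at all 6 starved times. *sfc6* had averages of 674 in WT, 1099 in *pho7*Δ at 0 h and 1249.7, 1388, 1419.7, 1572, 1550.4 and 1511 from 4 to 48 h. It was above WT in all 7 groups, by 0.70 at 0 h and 1.22 at 24 h, and was called higher from 8 h on. *sfc1*, whose product associates with the A box, was 0.33 to 0.60 above WT and *sfc9* -0.50 to 0.05, and neither was called. Per kilobase of exon the 5 genes lay within 20.6-fold of each other in WT, from *sfc3* to *sfc4*, within 5.51-fold in *pho7*Δ at 0 h and within 3.02-fold at 8 h. *sfc3* was the lowest of the 5 in every group, and is the gene with the antisense RNA described above. *sfc2*, for TFIIIA, which is needed for 5S rRNA genes, had averages of 1824 in WT, 1238 in *pho7*Δ at 0 h and 1030.0, 946, 935, 679.6, 674 and 623 from 4 to 48 h. It was lower in each group than in the one before and was -1.55 relative to WT at 48 h.

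The move from YES to the medium without phosphate was the step at which most members went the same way. From 0 to 4 h in the *pho7*Δ strain, 30 of 34 members had a lower average, among them all 13 Pol I genes and 15 of 18 Pol III genes, whereas 51% of coding genes had a higher one. The median step was -0.83 for Pol I, -0.38 for Pol III and 0.01 for all coding genes. *maf1*, *brf1*, *sfc3* and *sfc6* were the 4 members that went up. From 4 to 8 h, 25 of 34 had a lower average, 24 of them for the second time, with a median of -0.14 against -0.05 for coding genes. Between 8 and 48 h the median change was small, 0.10 for members and -0.06 for coding genes. In that interval 19 members were higher and 15 lower, or 55.9% higher, where 44.5% of coding genes were. Those that had gained most were *rpc37* (1.12), *bdp1* (0.98), *rpa12* (0.77) and *rpc11* (0.68), and those that had lost most were *maf1* (-0.69), *sfc2* (-0.60), *spp27* (-0.60) and *rpa2* (-0.53), on the log2 scale. From 36 to 48 h the median absolute step of the members was 0.06, against 0.07 for coding genes.

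Against *pho7*Δ at 0 h, a comparison that shares its starved groups with the one against WT, 1 member was called higher and 3 lower at 4 h (5.13% and 4% of coding genes). At 8 h the counts were 2 and 6 (9.95% and 8.34%), at 12 h 2 and 5 (10.5% and 9.05%), at 24 h 2 and 8 (12.2% and 12%), and at 36 and 48 h 3 and 7 (12.5% and 13.3%, then 12.4% and 13.3%). Over the course, 3 members were higher and 8 lower, where 14.3% and 15.4% of coding genes were. The higher ones were *maf1*, *brf1* and *bdp1*, the lower ones *nuc1*, *rpa2*, *rpa49*, *rpa34*, *ker1*, *rrn5*, *rpc2* and *rpc17*. Of the calls against WT, 2 of the 6 higher ones and 5 of the 11 lower ones were also made here. The higher ones not made were *rpc37*, *rrn10*, *sfc3* and *sfc6*, and the lower ones *rpc1*, *rrn3*, *rrn7*, *sfc2*, *sfc4* and *spp27*. Coding genes also had fewer calls here, 704 higher and 758 lower, than against WT, 1007 and 980. How many coding genes were called against both references was not counted, so the overlap of the members has no background beside it. *spp27*, *sfc4* and *rpc1* had stood at -0.94, -0.96 and -0.38 relative to WT before transfer.

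The Pol I median lay below the Pol III median in each starved group. Against WT the medians were 0.21 for Pol I and 0.27 for Pol III at 0 h, -0.64 and -0.19 at 4 h, -0.75 and -0.44 at 8 h and -0.77 and -0.30 at 12 h. They were -0.90 and -0.11 at 24 h, -0.93 and -0.28 at 36 h and -0.88 and -0.32 at 48 h, while the coding median ran from -0.08 to 0.10. The Pol I median minus the Pol III median at 24 h was -0.79, and its size and the time at which it was widest depended on which genes were counted. Without the 10 members that lie, over more than 50% of their span, opposite a gene that has a row in the tables, it was -0.22 at 24 h and -0.30 at 12 h. With *rpc19*, *rpc40* and the 5 subunits of all polymerases in both lists it was -0.21 and -0.34 at these times. Without the 24 members that lie opposite any annotated gene in this way, which leaves 5 genes in either list, it was -0.94 at 24 h. The 2 lists overlapped in every group. At 48 h the Pol I values ran from -1.95 (*spp27*) to 1.18 (*rrn10*) and the Pol III values from -1.55 (*sfc2*) to 4.16 (*brf1*).

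**Figure D5:**
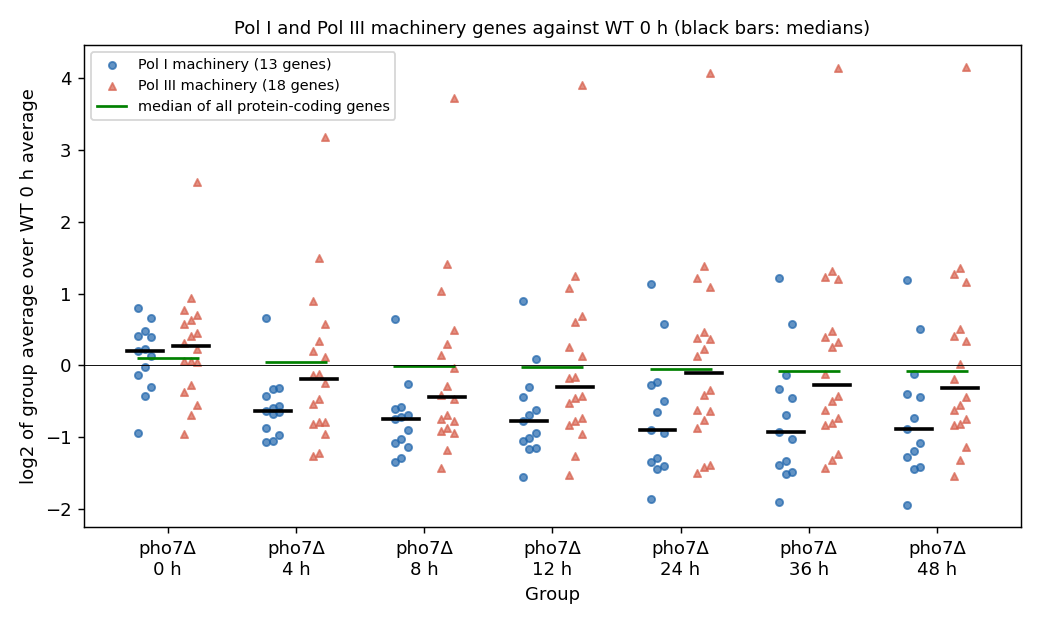
Log2 of the group average over the WT average for the 13 Pol I genes (circles) and 18 measured Pol III genes (triangles) in the 7 *pho7*Δ groups, with black bars for the median of each list and green bars for the median of all protein-coding genes. The Pol I bar drops from 0.21 at 0 h to -0.64 at 4 h and lies below the Pol III bar in each starved group, while the points of both lists overlap.

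Besides *brf1* and *sfc3*, 8 members lie opposite another listed gene over more than 50% of their span: *rpa34*, *rpa43*, *rpa49*, *rpc17*, *rpc37*, *rrn5*, *rrn7* and *sfc2*. The RNA opposite *rrn5*, rrn5-antisense-1, was at 143 in WT and at 29.9 in *pho7*Δ at 0 h, and *rrn5* itself changed by -0.02. *jac1*, opposite *sfc2*, was 0.65 above WT at 48 h, when *sfc2* was -1.55. *SPAC2F3.02*, opposite *rpa49*, went from 1724 in WT to 863 at 48 h, the same direction as *rpa49*, and *mpa1*, opposite *rpc17*, was -0.44. Opposite *rpa34* and *rrn7*, *sme1* and *spc24* were -0.43 and 0.23 at that time. The antisense RNAs at *rpa43* and *rpc37* had averages of at most 175 and 69.1. Another 14 members, *maf1*, *bdp1*, *sfc4*, *sfc6* and *rpa12* among them, lie likewise opposite a noncoding RNA of the RefSeq annotation that has no row in the tables and was not analysed here. Without all 24, an alternative chosen after seeing the data, 1 member (*rrn10*) was called higher than WT over the course and 5 were called lower. Members kept in this way can still lie opposite other genes over smaller parts. For *rrn10* these are a noncoding RNA over 47.4% of its span and *krp1* over 34.8%.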

How the data were processed

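Poly(A)+ RNA from 24 libraries in 8 groups was sequenced in pairs after a stranded TruSeq preparation. The submitters' notes name HISAT2 2.1.0 and assembly ASM294v2 for alignment, SAMtools, HTSeq 0.10.0 for counting and DESeq2 for normalization. The deposited value is a signal: for each gene and group the authors averaged normalized counts over 3 libraries, in 7 tables of 6987 rows, 1 per *pho7*Δ group with WT. Depth per library was not analysed here. Each table also holds the authors' own comparison with WT (mean over libraries, log2 fold change, standard error, statistic and p-values), which was not used.

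Log2 ratios of averages were taken with Python 3.11.15, numpy 2.4.6 and pandas 2.3.3 after a pseudocount of 1. A call needed a fold of 2 and an average of 100 in the higher group, a course call the same call at 2 consecutive starved times. Background shares are over protein-coding genes with an average of 100 in either group. The ratio and call steps were tested on simulated data. Named genes were the members, *pho7*, the comparison lists, genes with a row that lie opposite a member over more than 50% of its span and the 5 coding genes closest to *maf1* by Pearson r. Members and lists were chosen with earlier results of these data known. RefSeq names, exon lengths and overlaps are of ASM294v3, matched for all 35 members and 6834 rows, and no coordinates are given because the builds differ. In the list of regulators 14 of 16 symbols matched a row. Alternatives covered scaling, pseudocount, minimum average, fold limit, membership, overlapping genes and the reference group.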

Additional observations from a re-analysis of the deposited data

How the results depend on the processing

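No paired analysis was possible because the tables hold 1 average per group and no value per library. For the same reason leaving out a replicate, the replicate block and DESeq2 size factors were not run. No value carries an error, as the authors' standard errors were not used. Of 860 results recomputed over 14 alternatives, 566 were unchanged, 293 moved and 1 was reversed. A count within 1.5 times or a log2 value within 0.07 (the median step of coding genes from 36 to 48 h) counts as unchanged. Reversed means a change of sign in a median at least 0.07 from 0, or in a single-gene value past the fold limit. The reversed result was the median step of the members from 8 to 12 h. Changes of sign in smaller values are among those that moved. For example, the Pol I median minus the Pol III median at 0 h was -0.063, and 0.21 without the 10 members opposite a gene that has a row. No count moved with a pseudocount of 0.5 or 10, without a minimum average or with a minimum of 500. Counts depended on the fold limit, and the distance between the Pol I and Pol III medians depended on which members were counted. Of the values that moved, 130 are log2 differences of single genes from WT at 8 or 48 h: the 34 at 8 h shifted together by -0.12 with equal totals and the 34 at 48 h by 0.08 with the coding median at 0, 60 shifted by -2.56 to 0.96 with *pho7*Δ at 0 h as reference, and 2 by -0.11 with a pseudocount of 10. The other 163 moved values, counts and medians, are given in the next paragraph.

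With a fold limit of 1.5, members higher than WT numbered 7, 5 and 7 at 0, 4 and 12 h, members lower than WT numbered 3, 14, 19, 15, 15, 15 and 15 at all 7 times and members higher than *pho7*Δ at 0 h numbered 2 and 4 at 4 and 24 h. With this choice, members lower than *pho7*Δ at 0 h numbered 13, 21, 16, 15, 15 and 17 at all 6 starved times and the calls over the course were 18 for members lower and 8 for Pol III lower. Without the 10 members opposite a gene that has a row in the tables, members higher than WT numbered 0, 1, 2, 2, 3, 3 and 3 at all 7 times, the Pol I median minus the Pol III median was 0.21, -0.19, -0.14, -0.30, -0.22, -0.14 and -0.15 at all 7 times and members lower than WT numbered 5, 5 and 5 at 24, 36 and 48 h. With this choice, members higher than *pho7*Δ at 0 h numbered 1, 1 and 1 at 8, 12 and 24 h, members lower than *pho7*Δ at 0 h numbered 3, 4, 3 and 3 at 12, 24, 36 and 48 h and the calls over the course were 3 for members higher, 6 for members lower, 4 for Pol I lower and 1 for Pol III higher. The next choice, made after seeing the data, left out the 24 members opposite a single annotated gene over more than 50% of their span. Members higher than WT then numbered 0, 0, 0, 0, 1, 1 and 1 at all 7 times. The Pol I median minus the Pol III median was 0.42, -0.54, -0.74, -0.58, -0.94, -0.89 and -0.84 at all 7 times. Members lower than WT numbered 2, 4, 4, 4, 4 and 4 at all 6 starved times. With this choice, members higher than *pho7*Δ at 0 h numbered 0, 0, 0, 0, 0 and 0 at all 6 starved times, members lower than *pho7*Δ at 0 h numbered 1, 2, 2, 3, 2 and 3 at all 6 starved times, the median step of the members was -0.076 and -0.053 at 12 and 24 h and the calls over the course were 1 for members higher, 5 for members lower, 4 for Pol I lower, 0 for Pol III higher and 1 for Pol III lower. Without *brf1* and *sfc3*, chosen after seeing the data, members higher than WT numbered 0, 1, 2 and 2 at 0, 4, 8 and 12 h, the Pol I median minus the Pol III median was 0.062, -0.28, -0.18, -0.33, -0.52, -0.46 and -0.39 at all 7 times and members higher than *pho7*Δ at 0 h numbered 1, 1 and 1 at 8, 12 and 24 h. With this choice, the calls over the course were 2 for Pol III higher. With averages rescaled to equal totals, members lower than WT numbered 2 and 7 at 0 and 4 h, members lower than *pho7*Δ at 0 h numbered 3 and 5 at 12 and 24 h and the median step of the members was 0.17 at 12 h. With the median ratio of coding genes set to 0, members lower than WT numbered 2 at 0 h and members lower than *pho7*Δ at 0 h numbered 1, 3 and 5 at 4, 12 and 24 h. With a fold limit of 3, members higher than WT numbered 1, 2, 2, 1, 1 and 1 at all 6 starved times, members lower than WT numbered 0, 0, 0, 1, 1 and 1 at all 6 starved times and members higher than *pho7*Δ at 0 h numbered 0, 1, 1, 0, 1 and 1 at all 6 starved times. With this choice, members lower than *pho7*Δ at 0 h numbered 0, 0, 2, 3, 3 and 3 at all 6 starved times and the calls over the course were 2 for members higher, 1 for members lower, 0 for Pol I higher, 1 for Pol I lower, 1 for Pol III higher and 0 for Pol III lower. With *pho7*Δ at 0 h as the reference in place of WT, members higher than the reference numbered 1, 2, 2, 2, 3 and 3 at all 6 starved times, the Pol I median minus the Pol III median was -0.21, -0.41, -0.47 and -0.43 at 12, 24, 36 and 48 h and the calls over the course were 3 for members higher, 0 for Pol I higher and 2 for Pol III higher. With *rpc19* and *rpc40* in both lists, the Pol I median minus the Pol III median was -0.30, -0.54, -0.44 and -0.41 at 4, 24, 36 and 48 h. With these and the 5 subunits of all polymerases in both lists, the Pol I median minus the Pol III median was -0.27, -0.34, -0.21, -0.23 and -0.25 at 4, 12, 24, 36 and 48 h and the calls over the course were 5 for Pol III lower.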

Other observations

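Rows for RNAs that Pol III makes were present but low, as these were poly(A)+ libraries. The 187 tRNA genes summed to 245 normalized counts in WT, 76.6 in *pho7*Δ before transfer, 115 after 4 h and 412 after 48 h. The 37 5S rRNA genes summed to 213, 234, 192 and 488 in the same groups. No such row reached an average of 100 in any group, and these sums were not compared further.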
